A study of Mus musculus with 13 samples.

Results

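The 9 genes described here carry high-energy phosphate through the muscle fibre. They are 3 creatine kinases (Ckm, Ckmt2 and Ckb), 3 genes of creatine supply (Slc6a8, Gatm and Gamt), adenylate kinase 1 (Ak1) and 2 AMP deaminases (Ampd1 and Ampd3). They were picked by symbol from 17924 genes with counts, all 9 were found, and all 9 were among the 17069 genes tested. RNA-Seq libraries were made from whole EDL, psoas and soleus muscles of *mdm* mice, with 5 EDL, 5 psoas and 3 soleus libraries. All mice carry *mdm*, a deletion and LINE-1 insertion where the N2A and PEVK regions of titin meet, and come from the B6C3Fe a/a-Ttn-mdm/J colony, without any treatment. The labels give the sex of some of the mice only. The EDL libraries came from mice of 38 days (replicates 1, 2, 4 and 5) and 42 days (replicate 3). The psoas libraries came from mice of 29 days (replicate 1), 38 days (replicates 2, 4 and 5) and 42 days (replicate 3), and the soleus libraries from mice of 33, 36 and 38 days (replicates 1, 2 and 3). Wild-type libraries were not analysed here, so each comparison is between muscles that share the mutation.

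A contracting fibre spends ATP faster than mitochondria can deliver it, and creatine kinase buffers the difference by moving phosphate between phosphocreatine and ADP. Ckm encodes the cytosolic muscle enzyme, Ckmt2 the sarcomeric mitochondrial enzyme that charges creatine beside the ATP exporter, and Ckb the cytosolic brain form. Adenylate kinase recovers ATP from a pair of ADP molecules and leaves AMP, and AMP deaminase removes that AMP as IMP, the entry to the purine nucleotide cycle. Creatine reaches the fibre from the blood through the transporter Slc6a8, or is made from arginine and glycine by Gatm followed by Gamt. Fast-twitch fibres are known for a large phosphocreatine pool and slow-twitch fibres for a larger mitochondrial share of creatine kinase.

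The stretch from 250 bases before to 50 bases after the transcription start is shown for the 2 muscle creatine kinases, for the brain form, and for Gatm, because Ckm and Gatm were the 2 members called between muscles, in opposite directions. The sequences are RefSeq promoters on GRCm38.p6, which hold 12 windows for 7 of the 9 members. Each is written 5′ to 3′ on the strand of its gene, and capitals mark E-boxes (CANNTG, the letters bound by MyoD-type factors) and the MEF2 motif. They lie at chr7:19410844-19411143 (plus strand, Ckm), chr13:91876836-91877135 (minus strand, Ckmt2), chr12:111672289-111672588 (minus strand, Ckb) and chr2:122611228-122611527 (minus strand, Gatm).
Ckm: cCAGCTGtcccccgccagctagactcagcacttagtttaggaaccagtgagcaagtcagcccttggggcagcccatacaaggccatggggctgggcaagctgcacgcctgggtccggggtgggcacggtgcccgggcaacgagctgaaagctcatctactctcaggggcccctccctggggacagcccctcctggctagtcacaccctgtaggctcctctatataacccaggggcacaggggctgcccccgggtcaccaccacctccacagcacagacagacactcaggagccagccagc
Ckmt2: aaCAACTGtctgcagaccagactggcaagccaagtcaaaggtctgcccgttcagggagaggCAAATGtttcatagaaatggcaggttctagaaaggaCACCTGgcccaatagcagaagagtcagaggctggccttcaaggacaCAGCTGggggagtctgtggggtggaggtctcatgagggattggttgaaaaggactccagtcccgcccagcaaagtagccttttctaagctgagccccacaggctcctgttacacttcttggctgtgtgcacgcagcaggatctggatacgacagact
Ckb: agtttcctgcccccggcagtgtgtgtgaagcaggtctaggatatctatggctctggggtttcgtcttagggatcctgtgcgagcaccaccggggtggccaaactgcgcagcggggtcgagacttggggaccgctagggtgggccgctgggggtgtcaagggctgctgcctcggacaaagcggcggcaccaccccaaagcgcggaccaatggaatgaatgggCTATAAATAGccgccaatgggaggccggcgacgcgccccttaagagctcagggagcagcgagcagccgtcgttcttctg
Gatm: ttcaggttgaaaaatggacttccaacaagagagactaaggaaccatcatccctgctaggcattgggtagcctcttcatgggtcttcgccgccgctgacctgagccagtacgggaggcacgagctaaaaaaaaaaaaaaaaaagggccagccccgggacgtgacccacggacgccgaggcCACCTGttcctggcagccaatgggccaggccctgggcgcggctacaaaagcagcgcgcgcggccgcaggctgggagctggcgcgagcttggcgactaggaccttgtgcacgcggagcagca

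Counted from 0 at the start site, the Ckm window held 1 E-box, CAGCTG, at -249. The Ckmt2 window held 4 E-boxes, at -248, -189, -153 and -107, and the last of them was also CAGCTG. The Gatm window held 1, CACCTG, at -71. The Ckb window held no CANNTG but a MEF2 motif at -29, CTATAAATAG, whose letters include the TATAAA at -28. These letters are common or rare regardless of muscle genes: of 32851 promoters of the same length, 72.3% held CANNTG, 16.3% held CAGCTG, 13.6% held TATAAA on either strand and 3.19% held the MEF2 motif, which reads alike on both strands. A match is a string of letters in a window, and binding was not measured.

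Total counts ran from 9114176 to 48835209 per library. Every member had at least 47 counts in every library. Values are normalized counts, the count divided by the library's size factor, unless stated otherwise. The labels match the muscles in that the 8 slow fibre markers summed to between 350050 and 414997 in soleus and to at most 66549 in EDL or psoas. The 4 fast fibre markers summed to between 251985 and 1068163 in EDL, to between 25910 and 90490 in psoas and to between 15799 and 35438 in soleus, and none of these 12 markers was at 0 in any library. The labels also hold a code for each library (T1 to T6) without explanation. T1 and T3 each hold 1 library, EDL replicate 1 and psoas replicate 1, T5 holds EDL and psoas replicate 3, T4 holds replicate 2 of both with soleus replicates 1 and 2, and T6 holds replicates 4 and 5 of both with soleus replicate 3.

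Ckm was by far the most abundant member. On chromosome 7 (GRCm38, 19404776 to 19422841), it took 0.511% to 0.842% of all counts in EDL, 0.178% to 0.457% in psoas and 0.201% to 0.272% in soleus. Per kilobase of exon it ranked between place 28 and place 74 of all genes in every library. The normalized counts of EDL replicates 1 to 5 were 106299, 140029, 187509, 115056 and 163339. Those of psoas replicates 1 to 5 were 24850, 30886, 45475, 64790 and 58951, and those of soleus replicates 1 to 3 were 41756, 31913 and 42697. Every EDL library lay above every psoas and soleus library, and psoas and soleus overlapped. The means were 142446 ± 33652 (SD, n = 5) in EDL, 44991 ± 17260 (SD, n = 5) in psoas and 38788 ± 5973 (SD, n = 3) in soleus.

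Ckm fell by 1.67 on the log2 scale (SE 0.30) from EDL to psoas, a 3.17-fold lower level with an edgeR adjusted p of 0.00356. A gene was called differentially expressed at an adjusted p under 0.01 and a fold change over 2. The adjusted p of Ckm rose to 0.0105 without EDL replicate 3 and to 0.0107 without psoas replicate 2, with log2 fold changes of -1.54 and -1.56, so this call rests on those libraries. Within label code T4 the log2 ratio of psoas to EDL was -2.18 (1 library each), within T5 -2.04 (1 each) and within T6 -1.17 (2 each). Soleus against EDL gave -1.87 (SE 0.37) with an edgeR adjusted p of 0.0123, short of the call, though the groups did not overlap. It was called in soleus against EDL when psoas replicate 1 was left out (edgeR adjusted p = 0.00843). Leaving out soleus replicate 1, 2 or 3 raised the edgeR adjusted p to 0.059, 0.0742 or 0.038. The log2 fold changes were then -1.93, -1.75 and -1.94. Soleus against psoas gave -0.21, with a 95% interval of -0.94 to 0.52. The antisense gene A930016O22Rik, with a mean of 1186 normalized counts, shares 8.26% of the 75-base windows of Ckm on the opposite strand, and reads of the overlap may not have been told apart.

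Ckmt2, on chromosome 13 (91853387 to 91876885), varied more among replicates than Ckm did. EDL replicates 1 to 5 had 13749, 13133, 14999, 3756 and 11499 normalized counts, psoas replicates 759.8, 1951, 1897, 4480 and 7276, and soleus replicates 6072, 4311 and 6846. EDL replicate 4 stood below the rest of its group and inside the psoas range, so the groups overlapped. The means were 11427 ± 4469 (SD, n = 5), 3273 ± 2619 (SD, n = 5) and 5743 ± 1300 (SD, n = 3). Psoas against EDL gave a log2 fold change of -1.81 (SE 0.51) with an edgeR adjusted p of 0.0259, under 0.05 but not called. Without psoas replicate 5 it was called, at -2.34 with an edgeR adjusted p of 0.00847, and without psoas replicates 4 and 5 it was -2.9 (edgeR adjusted p = 0.00393). Other omissions took the edgeR adjusted p over 0.05. It was 0.0617 without EDL replicate 3, 0.0661 without psoas replicate 2 and 0.052 without psoas replicate 3. The log2 fold changes were then -1.69, -1.67 and -1.67. Without the EDL and psoas libraries numbered 1 it was -1.49 (edgeR adjusted p = 0.0573). Within code T4 the log2 ratio was -2.75, within T5 -2.98 and within T6 -0.38. Soleus against EDL gave -0.99 with a 95% interval of -2.27 to 0.28, and soleus against psoas 0.82 with an interval of -0.39 to 2.02.

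Ckb, on chromosome 12 (111669361 to 111672338), was a minor form in all 3 muscles, with means of 408 ± 234 (SD, n = 5) in EDL, 484 ± 201 (SD, n = 5) in psoas and 418 ± 168 (SD, n = 3) in soleus. Its lowest library was EDL replicate 3, at 145.3 normalized counts, and its highest was psoas replicate 1, at 722. The 3 muscles overlapped, and the log2 fold changes were 0.25 for psoas against EDL (95% interval -0.62 to 1.13), 0.04 for soleus against EDL (-0.97 to 1.05) and -0.21 for soleus against psoas (-1.22 to 0.80). Of its transcripts' 75-base windows, 5.82% also occur in Gm12892, so reads from there cannot be assigned with certainty.

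**Figure D1:**
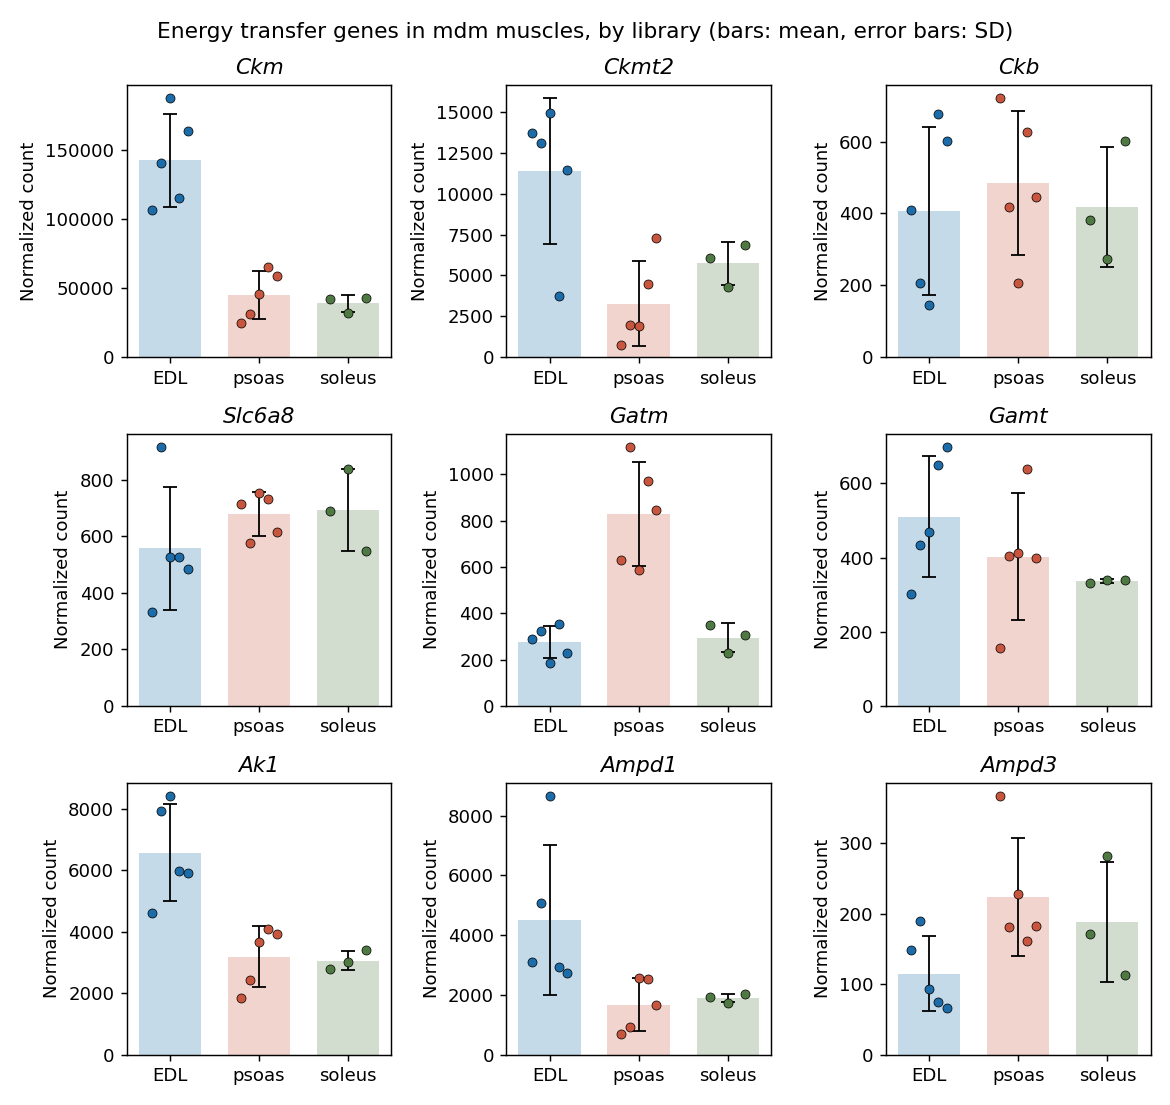
Normalized counts of the 9 members (vertical axes, each starting at 0) in EDL, psoas and soleus of *mdm* mice. Points are libraries in replicate order, bars are means and error bars SD (n = 5, 5 and 3). Ckm is highest in all 5 EDL libraries, at 106299 or more, and Gatm is highest in all 5 psoas libraries, at 588 or more.

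The creatine kinases were also set against each other per kilobase of exon. These ratios, and the other ratios between members below, are descriptions and were not tested. Neither Ckm (-0.21) nor Ckmt2 (0.82) was called in soleus against psoas, and the soleus side rests on 3 libraries. Ckmt2 reached 26.5% to 31.4% of the Ckm level in soleus, above each EDL library (6.40% to 25.4%) and each psoas library (5.99% to 24.2%). EDL and psoas overlapped in this ratio, with medians of 15.7% and 12.4%. Ckb stayed below 3% of Ckm everywhere, at 0.078% to 0.591% in EDL, 0.454% to 2.92% in psoas and 0.858% to 1.42% in soleus. These ratios take the union of annotated exons as the length (2913 bases for Ckm, 1486 for Ckmt2 and 2895 for Ckb), so they are comparable between libraries and only roughly between genes.

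Among the 3 genes of creatine supply, 1 was called, in the direction opposite to Ckm. Gatm, on chromosome 2 (122594467 to 122611303), encodes glycine amidinotransferase, which catalyses the first and rate-limiting step of creatine synthesis. EDL replicates 1 to 5 had 287, 322.8, 187.1, 352.9 and 228.6 normalized counts, psoas replicates 628.4, 1119, 588, 969.3 and 845.5, and soleus replicates 350.5, 228.5 and 304.3. All 5 psoas libraries stood above all 8 others, while EDL and soleus overlapped. Gatm rose by 1.59 on the log2 scale (SE 0.23) from EDL to psoas, 3.0-fold, with an edgeR adjusted p of 0.00122. It kept this call in each of the 23 alternatives run, at log2 fold changes of 1.46 to 2.1. Within codes T4, T5 and T6 the log2 ratio was 1.79, 1.65 and 1.64. Soleus against psoas gave -1.49 (SE 0.27) with an edgeR adjusted p of 0.0233, under 0.05 but not called, and no soleus library reached a psoas value. Soleus against EDL gave 0.10, with a 95% interval of -0.45 to 0.65.

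Gamt, the methyltransferase that completes creatine, lies on chromosome 10 (80258151 to 80261012). It had means of 510 ± 163 (SD, n = 5) in EDL, 402 ± 171 (SD, n = 5) in psoas and 337 ± 4.61 (SD, n = 3) in soleus. EDL ran from 300.6 to 699.2 normalized counts, psoas from 155.1 (replicate 1) to 639.2, and soleus only from 331.9 to 340.6, so all groups overlapped. Psoas against EDL gave a log2 fold change of -0.34, with a 95% interval of -0.99 to 0.30. Per kilobase, Gatm amounted to 68.5% to 195% of Gamt in psoas, against 15.7% to 45.9% in EDL and 32.3% to 50.8% in soleus.

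Slc6a8, the creatine transporter on the X chromosome (73673150 to 73682502), had means of 558 ± 217 (SD, n = 5), 679 ± 78.1 (SD, n = 5) and 693 ± 146 (SD, n = 3) in EDL, psoas and soleus. The highest library of all was EDL replicate 2, at 918.1 normalized counts, and the lowest was EDL replicate 1, at 332.5. No comparison was called, and the 95% intervals were -0.23 to 0.78 for psoas against EDL, -0.26 to 0.90 for soleus against EDL and -0.54 to 0.62 for soleus against psoas. All 3 intervals lie within 2-fold in either direction under the main scaling (TMM). When libraries were scaled by their totals alone, psoas against EDL was 0.81 (edgeR adjusted p = 0.0171). Soleus against EDL was then 0.70 (edgeR adjusted p = 0.12).

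Ak1, the cytosolic adenylate kinase of muscle, lies on chromosome 2 (32621758 to 32635058). EDL replicates 1 to 5 had 4607, 7911, 8427, 5974 and 5906 normalized counts, psoas replicates 1849, 2414, 3651, 4087 and 3922, and soleus replicates 2774, 3017 and 3389. All EDL libraries lay above all others, and soleus lay inside the psoas range. Psoas against EDL gave a log2 fold change of -1.05 (SE 0.25) with an edgeR adjusted p of 0.0120, just short of the call. With the replicate number as a block Ak1 was called (-1.07, edgeR adjusted p = 0.00955), as it was with the label code as a block (-1.02, edgeR adjusted p = 0.00761). Within codes T4, T5 and T6 the log2 ratio was -1.71, -1.21 and -0.57. Soleus against EDL gave -1.10 (SE 0.30) with an edgeR adjusted p of 0.0587, and soleus against psoas -0.05 with a 95% interval of -0.66 to 0.56. Per kilobase, Ak1 was 4.06% to 6.35% of Ckm in EDL, 7.09% to 9.02% in psoas and 7.46% to 10.6% in soleus.

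Ampd1, on chromosome 3 (103074014 to 103099720), encodes the AMP deaminase of skeletal muscle. EDL replicates 1 to 5 had 3090, 5069, 8672, 2933 and 2736 normalized counts, psoas replicates 676.8, 925.5, 2574, 2524 and 1654, and soleus replicates 1932, 1744 and 2019. The lowest EDL library stood just above the highest psoas library. The means were 4500 ± 2514 (SD, n = 5), 1671 ± 879 (SD, n = 5) and 1898 ± 140 (SD, n = 3). Psoas against EDL gave a log2 fold change of -1.44 (SE 0.40) with an edgeR adjusted p of 0.0251, under 0.05 but not called. It was -1.05 (edgeR adjusted p = 0.0796) without EDL replicate 3 and -1.28 (edgeR adjusted p = 0.0624) without psoas replicate 2. Within codes T4, T5 and T6 the log2 ratio was -2.45, -1.75 and -0.44. Soleus against EDL gave -1.25 (SE 0.48) with an edgeR adjusted p of 0.208.

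Ampd3, on chromosome 7 (110768206 to 110812405), encodes the AMP deaminase first described in erythrocytes. EDL replicates 1 to 5 had 149, 190.1, 93.57, 74.06 and 66.27 normalized counts, psoas replicates 367.5, 180.5, 228.1, 161.5 and 182.4, and soleus replicates 170.5, 281.4 and 113.5. Psoas replicate 1 was the highest, and EDL replicate 2 lay inside the psoas range. Psoas against EDL gave a log2 fold change of 0.95 (SE 0.34) with an edgeR adjusted p of 0.0688, and without psoas replicate 1 it was 0.70. Per kilobase, Ampd3 was 0.68% to 3.04% of Ampd1 in EDL, 4.04% to 34.2% in psoas and 3.54% to 10.2% in soleus, so this ratio did not overlap between EDL and the other muscles. The 4 erythroid markers summed to 5645 and 5046 in psoas replicates 4 and 5 and to 648.9 in psoas replicate 1, the library with the most Ampd3, and their part in the Ampd3 level was not tested. Of the windows of Ampd3, 4.17% occur on either strand in another gene, mainly Rnf141.

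**Figure D2:**
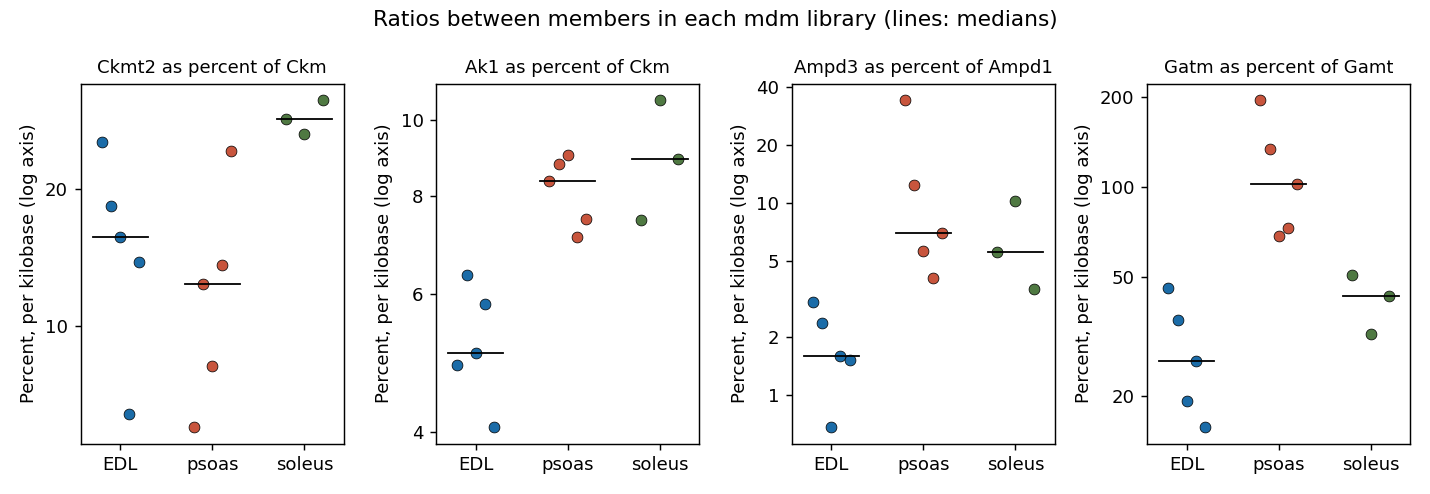
Ratios between pairs of members in each *mdm* library, as percent per kilobase of exon (logarithmic vertical axes), with 1 point per library and lines at medians. Ckmt2 relative to Ckm is highest in soleus (26.5% to 31.4%), Ampd3 relative to Ampd1 is lowest in EDL (0.68% to 3.04%), and Gatm relative to Gamt is highest in psoas (68.5% to 195%).

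Counted together, 2 of the 9 members were called in psoas against EDL, Ckm lower and Gatm higher, where 4.93% of all genes tested were called. At an adjusted p under 0.05 without a fold limit the count was 5, with Ckmt2, Ak1 and Ampd1 added, beside 18.1% of all genes. DESeq2 called 5 members, beside 9.35% of all genes, and 6 had an unadjusted edgeR p under 0.05, beside 33.3%. The groups did not overlap for 4 members (Ckm, Ak1 and Ampd1 lower and Gatm higher), beside 13% of all genes. In soleus against EDL 0 members were called by edgeR and 2, Ckm and Ak1, by DESeq2, beside 0.978% of all genes by edgeR and 3.73% by DESeq2. At an unadjusted p under 0.05 there were 3 members, beside 15.1% of all genes. At an adjusted p under 0.05 the count was 1 (Ckm), beside 3.43% of genes, and 3 members did not overlap (Ckm, Ak1 and Ampd1, all lower), beside 11%. In soleus against psoas 0 members were called by edgeR and 1, Gatm, by DESeq2, beside 0.0762% of all genes by edgeR and 1.01% by DESeq2. At an unadjusted p under 0.05 there was 1 member, a share near the 12.7% of all genes. At an adjusted p under 0.05 the count was 1 (Gatm), beside 0.633%, and Gatm was also the 1 member without overlap, beside 10.2%. The median log2 fold change of the members was -0.34, -0.59 and -0.21 in the 3 comparisons, against 0.02, -0.03 and -0.03 over all genes. The comparisons share libraries and are not independent of each other.

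**Figure D3:**
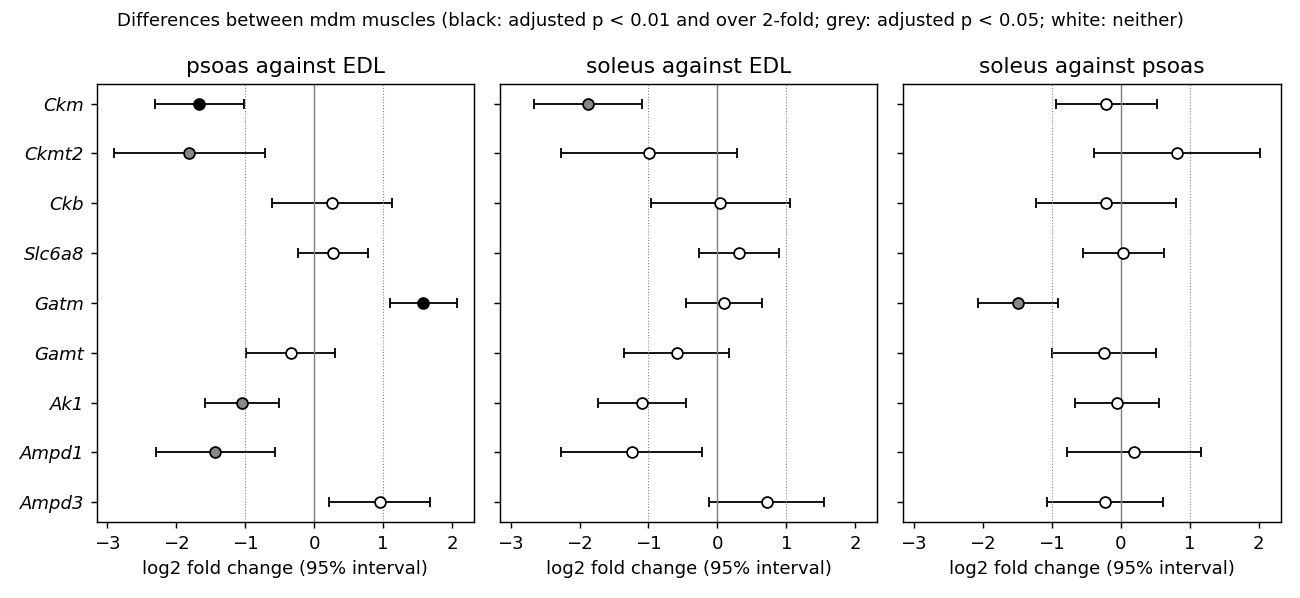
Log2 fold changes of the 9 members (points) with 95% intervals (bars) from the edgeR fit over 13 libraries, for psoas against EDL, soleus against EDL and soleus against psoas. Black points passed an adjusted p of 0.01 and 2-fold, grey points an adjusted p of 0.05, and white points neither. Ckm (-1.67) and Gatm (1.59) are the black points, both in psoas against EDL.

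Beyond the members, 37 tested genes of phosphate transfer and AMP metabolism were listed by function. In psoas against EDL 5 of the 37 fell and 0 rose, beside 2.5% of all genes called lower and 2.43% called higher, and the median of the list was -0.28, against 0.02 over all genes. At an adjusted p under 0.05 without a fold limit, 13 were lower and 2 higher, beside 9.06% of all genes in each direction. Adssl1, the muscle adenylosuccinate synthase that follows AMP deaminase in the purine nucleotide cycle, fell by 2.15 on the log2 scale (SE 0.31, edgeR adjusted p = 0.00127). Its normalized counts were 4379, 6597, 8981, 3756 and 6387 in EDL, 770.5, 773.3, 1671, 1740 and 1835 in psoas, and 1603, 1705 and 1537 in soleus. Every EDL library stood above the other 8. Slc25a4, the ADP-ATP exchanger of muscle mitochondria that works beside Ckmt2, fell by 1.57 (SE 0.32, edgeR adjusted p = 0.00585), from 56031 ± 10815 (SD, n = 5) in EDL to 18902 ± 8639 (SD, n = 5) in psoas. Vdac3, a channel of the outer mitochondrial membrane, fell by 1.33 (SE 0.29, edgeR adjusted p = 0.00824). Ak6, a nuclear adenylate kinase, fell by 1.34 (SE 0.25, edgeR adjusted p = 0.00398), and Nt5c3, a pyrimidine nucleotidase, by 1.27 (SE 0.19, edgeR adjusted p = 0.00159). Adssl1 and Nt5c3 kept their calls when any 1 library was left out. The call of Slc25a4 was lost without EDL replicate 2, 3 or 5 or psoas replicate 1, 2 or 3 (6 libraries, edgeR adjusted p up to 0.0173), that of Vdac3 without any of those or psoas replicate 4 or soleus replicate 1 or 2 (9 libraries, up to 0.0246), and that of Ak6 without EDL replicate 3 or psoas replicate 2 (up to 0.0112).

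By group, 2 of 5 genes of ADP-ATP exchange, 1 of 5 adenylate kinases, 1 of 4 purine nucleotide cycle genes and 1 of 12 genes listed under AMP and adenosine breakdown and salvage fell in psoas against EDL, where 2.5% of all genes did. The 1 of those 12 was Nt5c3, a pyrimidine nucleotidase. In the ADP-ATP exchange group Slc25a5 went the other way from Slc25a4, at 0.45 (edgeR adjusted p = 0.1035), and was not called. In soleus against EDL Slc25a5 had 0.75 (edgeR adjusted p = 0.0661), also not called, and every soleus library lay above every EDL library. None of the 8 AMP-activated kinase genes, the 2 nucleoside diphosphate kinases or the creatine efflux transporter Slc16a12 was called. Among the AMP-activated kinase subunits, Prkaa2 and Prkab2 had log2 fold changes of -1.23 (edgeR adjusted p = 0.0581) and -1.02 (edgeR adjusted p = 0.0490). Both overlapped between EDL and psoas. Prkaa1 and Prkab1 had 0.16 and 0.52. Prkag1 had -0.59 (edgeR adjusted p = 0.0220), Prkag2 0.11 and Prkag3 0.085 (edgeR adjusted p = 0.858). Of the adenylate kinases that were not called, Ak4 of the mitochondrial matrix had -1.47 (edgeR adjusted p = 0.0275), Ak5 1.10 (edgeR adjusted p = 0.0458), Ak3 0.16 and Ak9 -0.49. Ampd2, the third AMP deaminase, had 0.79 (edgeR adjusted p = 0.130) at means of 52.6 in EDL and 91.7 in psoas. In soleus against EDL 0 of the 37 were called by edgeR, 12 had an unadjusted p under 0.05 (15.1% of all genes) and DESeq2 called 1 (3.73% of all genes), Adssl1, whose edgeR log2 fold change was -1.90 (edgeR adjusted p = 0.0132). In soleus against psoas 0 were called by edgeR and 0 by DESeq2, and 5 had an unadjusted p under 0.05, a share near the 12.7% of all genes.

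**Figure D4:**
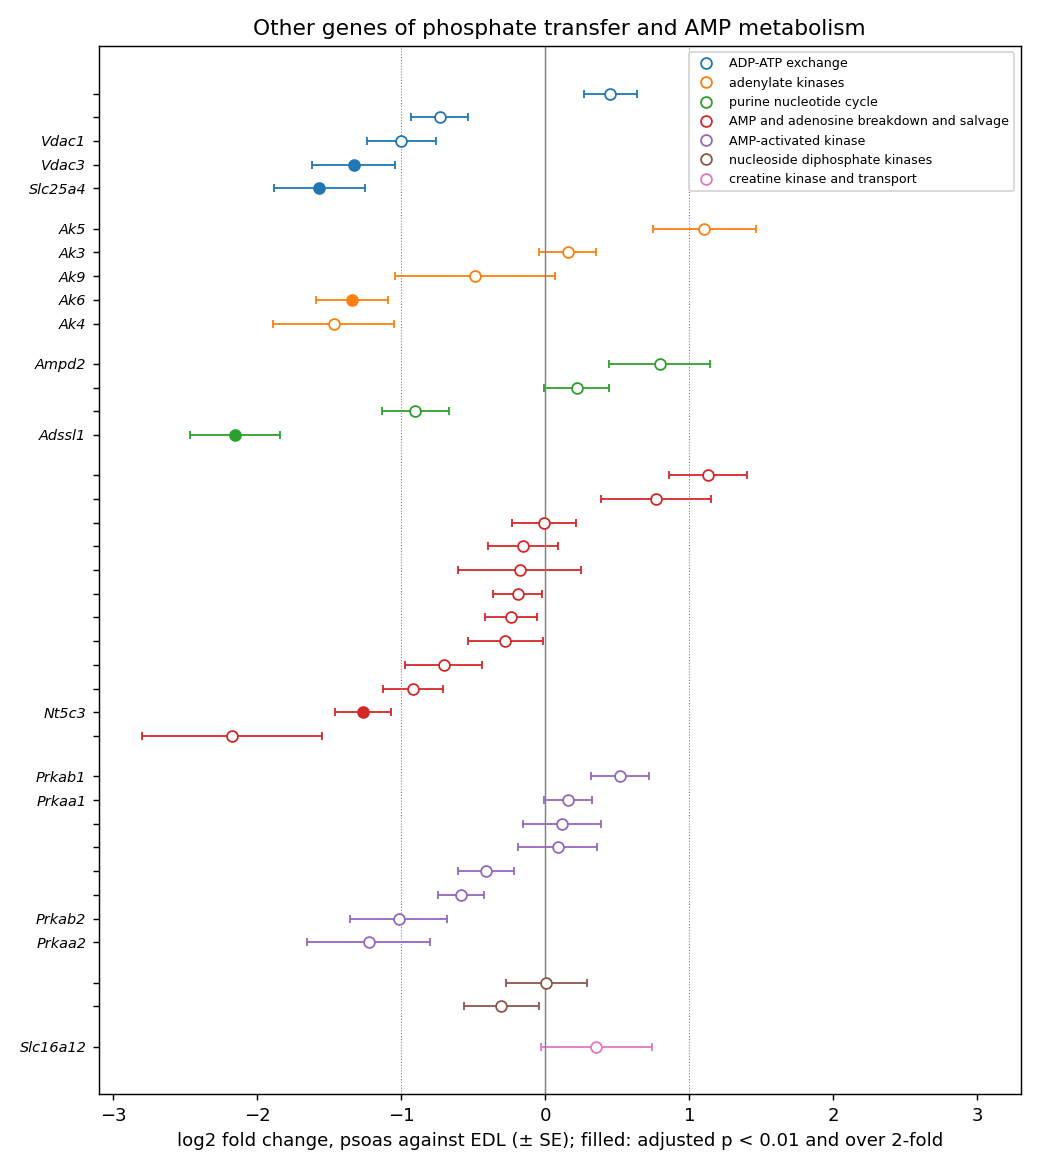
Log2 fold changes of psoas against EDL (horizontal axis, error bars SE) for 37 further genes of phosphate transfer and AMP metabolism, coloured by function. Called genes and part of the others named in the text are labelled. Filled points passed an adjusted p of 0.01 and 2-fold. The 5 filled points (Slc25a4, Vdac3, Ak6, Adssl1 and Nt5c3) all lie left of -1.

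Across the 13 libraries, log2 CPM of Ckm and Ak1 had a Pearson r of 0.96, Ak1 and Ampd1 of 0.93 and Ckm and Ampd1 of 0.86, while Ckm and Ampd3 had -0.73 and Ckm and Gatm -0.53. The points of these descriptions share the muscles and the library composition. The genes whose pattern was most like that of Ckm, among 9961 genes, were Tigd4 (0.991), the glycolytic aldolase Aldoa (0.989) and the fast myosin light chain Mylpf (0.984). For Ckmt2 they were Ugp2 (0.955), the malate dehydrogenase Mdh1 (0.946) and the succinate dehydrogenase subunit Sdhb (0.944). For Ak1 they were Pgm1 (0.981) and Phkb (0.974), of glycogen metabolism, and Capza2 (0.967), and for Ampd1 the triad protein Stac3 (0.968), 5730455P16Rik (0.955) and Tarsl2 (0.955). Gatm was most like the collagen Col6a5 (0.940), the N-cadherin Cdh2 (0.938) and Nrk (0.927), and Ampd3 like Spen (0.960), Hipk2 (0.955) and Cobll1 (0.953). Ckb was most like Rpsa-ps5 (0.930), Lima1 (0.915) and Armcx1 (0.914), Slc6a8 like Wdtc1 (0.904) and Actr1b (0.895), and Gamt like Bloc1s2 (0.920), Arpc4 (0.916) and Fam213b (0.915).

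Other cells and fibre types in the whole muscles moved with these results. The sum of the 4 fast fibre markers was lower in all psoas and soleus libraries than in all EDL libraries, as Ckm, Ak1 and Ampd1 were. Of the 4, Myh4 and Mybpc2 were called lower in psoas, and Actn3 overlapped between EDL (18528 to 96775) and psoas (11529 to 30366). In bulk muscle, fewer fibres of a type and less RNA per fibre cannot be told apart. The 5 general fibre markers summed to between 1143550 and 1879524 in EDL and to between 778115 and 1356627 in psoas, which overlap. They did not move alike in psoas against EDL: Mylpf fell by 1.60 on the log2 scale (edgeR adjusted p = 0.00523), Tnnc2 had -1.75 (edgeR adjusted p = 0.0195), Acta1 -0.99 (edgeR adjusted p = 0.0493), Des 0.56 (edgeR adjusted p = 0.156) and Ttn 0.19 (edgeR adjusted p = 0.752). This list is not free of fibre type. Mylpf is the fast myosin light chain named above, and Tnnc2 was also called lower in soleus than in EDL (-3.73, edgeR adjusted p = 0.00660). The 5 mitochondrial markers, of which Vdac1 is also among the 37 genes above, summed to between 59602 and 111526 in EDL and to between 24634 and 58780 in psoas, lowest in psoas replicate 1, the library with the least Ckmt2. The largest part of this sum was Atp5b, at 37031 to 76858 in EDL and 14068 to 36138 in psoas. None of the 5 was called. Atp5b and Vdac1 did not overlap between EDL and psoas, while Cs, Cox4i1 and Uqcrc1 did, and Cs had -0.27 (edgeR adjusted p = 0.461). With Gatm moved the 3 mesothelial markers, at 25.7 to 95.4 in EDL, 169.1 to 835.7 in psoas and 27.9 to 91.1 in soleus, where Upk3b and Wt1 were at 0 in some EDL and soleus libraries. The 4 Schwann cell markers summed to between 452 and 1238 in EDL, 2175 and 18444 in psoas and 1179 and 4006 in soleus, highest in psoas replicate 1, and Sox10 was at 0 in some EDL libraries. The part of these cells in the Ckm, Ckmt2, Ak1, Ampd1 and Gatm results was not tested. The 4 regenerating fibre markers ran from 34343 to 66191 in EDL, 63886 to 141915 in psoas and 58398 to 177272 in soleus, the 5 adipocyte markers from 9007 to 27711, 14087 to 36429 and 52157 to 82357. Within the regenerating list Myod1 was called higher in psoas than in EDL (1.58, edgeR adjusted p = 0.00137), at 297.5 to 545.9 in psoas and at most 193.4 in EDL and 137.4 in soleus. The soleus sum was mostly Myh3, at 50001 to 167407. Myh8 was called lower in soleus than in EDL (-1.845, edgeR adjusted p = 0.00446) and than in psoas (-2.563, edgeR adjusted p = 0.00163). It ran from 6260 to 7403 in soleus, 17651 to 30661 in EDL and 26027 to 52631 in psoas. Sums of macrophage, fibroblast, endothelial and smooth muscle markers overlapped between the 3 muscles. The smooth muscle and pericyte markers did not move alike. Acta2 was called higher in psoas than in EDL (1.42, edgeR adjusted p = 0.00438), at 1789 to 3935 against 779 to 1528. Rgs5 went the other way (-0.81, edgeR adjusted p = 0.0146), at 3171 to 4799 against 5680 to 9451. Tagln and Myh11 had 1.33 and 1.36 (edgeR adjusted p = 0.0287 and 0.173) and were not called. Myod1, Myh3, Myh8 and the smooth muscle markers were named singly after their values were seen, and their part in the Gatm result was not tested.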

How the data were processed

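Total RNA of 13 *mdm* muscles was made into libraries with the Illumina TruSeq Stranded Total RNA kit and read as 75 bp pairs on a NextSeq sequencer. The authors trimmed reads of low-quality libraries with Trimmomatic 0.32, aligned with TopHat2 2.1.1 to GRCm38 and deposited whole-number counts per gene. How overlapping genes and strand were handled in counting is not given in the sources used here. The authors also deposited a normalized signal, the count divided by 1 DESeq2 size factor per library, and the quotient was checked (largest relative deviation 5.3e-15). GENCODE mouse release 21 named 17833 of 17924 genes.

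The 9 members, the lists of other genes and the markers were chosen with earlier results of these data known. The 17069 genes that reached a normalized count of 10 in 3 or more libraries entered 1 edgeR 4.0.16 quasi-likelihood fit (R 4.3.3, TMM, muscle as the only factor), with Benjamini-Hochberg adjustment over all genes. The study also fitted the sequencing run, which no label names. As in the study, a call needs an adjusted p under 0.01 and over 2-fold change. SE was obtained as the log2 fold change over the root of its F statistic, and 95% intervals use the t quantile of the fit. DESeq2 1.42.0, other size factors, no filter, blocks for label code or replicate number, pairs of muscles alone and leaving out libraries were the alternatives. Named are all members, listed genes that were called, other isozymes and AMP-activated kinase subunits, and the 3 genes most like each member by Pearson r of log2 CPM (prior count 2) among genes with a mean normalized count of at least 100. Genes outside this rule named for a count are markers, and Slc25a5 and Impdh1 of the listed genes are also named. Of the genes this rule or the lists would name, 2 are not reported here.

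No label says that the libraries of 1 muscle came from separate mice, so p-values measure the spread between these libraries. None of 23 pairs within muscles was a duplicate (smallest chi-square per degree of freedom 56.5). EDL and psoas libraries with the same number deviated together (correlations of 0.407, 0.370, 0.316, 0.289 and 0.371 for numbers 1 to 5) and were taken as pairs in the fit with the replicate number as a block, an alternative to the unpaired main design, although the mice numbered 1 were 38 and 29 days old. EDL and soleus (0.115, 0.421 and -0.162) and psoas and soleus (0.159, 0.141 and -0.302) were not regarded as pairs. The replicate number was still fitted as a block over all 13 libraries for the comparisons with soleus. Libraries of unlike numbers were not correlated for comparison. EDL and psoas libraries numbered 2 to 5 also share a label code. For numbers 2 and 3, mouse and code cannot be told apart, since T4 and T5 each hold 1 EDL and 1 psoas library. Numbers 4 and 5 both have code T6, so the number varies within that code. Those numbered 1 have unlike codes (T1 and T3). On simulated counts for psoas against EDL, edgeR recovered 74% of genes changed by a log2 fold of 2 and 94% of those changed by 3, out of 100 each among 17069 genes. DESeq2 recovered 86% and 96%, with 9 false calls against 1 by edgeR. The members ranged from -1.81 to 1.59 in this comparison, and changes that small were not simulated, so no recovery rate is known for them. The simulated libraries held no pairs or label codes.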

Additional observations from a re-analysis of the deposited data

How the results depend on the processing

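The 14 genes named with fold changes (9 members and the 5 called others) were fitted under 23 alternatives in 3 comparisons, 966 values, of which 892 kept their direction and side of the threshold, 27 lost a call, 18 gained one and 29 turned direction. For psoas against EDL, 2 members were called, and 5 by DESeq2 or at an adjusted p under 0.05 without a fold limit, while leaving out 1 library gave 1 to 3. Of the listed other genes 5 were called, 9 by DESeq2, 3 with only the 2 muscles in the fit, 3 without the EDL and psoas libraries numbered 1 (added after seeing the data), 15 at an adjusted p under 0.05, and 2 to 7 without 1 library. For soleus against EDL, where 0 members were called, DESeq2 called 2, and 1 was called without psoas libraries 4 and 5 (added after seeing the data) and at an adjusted p under 0.05, with 0 to 1 without 1 library. Of the listed genes there, DESeq2 called 1, the adjusted p under 0.05 gave 1, and leaving out 1 library gave 0 to 1. For soleus against psoas 1 member was called by DESeq2 and 1 at an adjusted p under 0.05. The cause of these differences was not tested.

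With the replicate block, 3 members (Ak1, Ckm and Gatm) and 6 listed genes were called in psoas against EDL, and of these Ak1 and Impdh1 were not called without it. The replicate block changed no other call of these genes. In soleus against psoas, where the numbers do not pair the libraries, it turned the log2 fold changes of Ckm (0.05), Ckb (0.25), Slc6a8 (-0.039), Gamt (0.19) and Ak1 (0.094). Over all genes, psoas against EDL had 841 calls, 1267 with the replicate block, 1586 by DESeq2 and 557 with only those muscles in the fit, and soleus against EDL had 167, against 633 by DESeq2.

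Scaling by library totals alone (added after seeing the data) moved the median of all genes to 0.54 for psoas against EDL, 0.34 for soleus against EDL and -0.18 for soleus against psoas, with 2119 of 2282 calls higher in psoas than in EDL (415 of 841 with TMM) and 237 of 305 higher in soleus than in EDL (91 of 167 with TMM). Under this scaling Ckm and Gatm kept their calls, Ampd3 was called, Ak6, Nt5c3, Slc25a4 and Vdac3 were not, Gamt turned to 0.15 and Slc6a8, in soleus against psoas, to -0.11. With the label code as a block Gatm turned to -0.081 in soleus against EDL and Slc6a8 to -0.12 in soleus against psoas. Without psoas libraries 4 and 5, Ckm (0.21), Gamt (0.0655) and Ak1 (0.22) turned in soleus against psoas, and without the libraries numbered 1, Ampd1 (-0.010) and Ampd3 (0.021) did. Leaving out 1 library moved uncalled values across 0: for soleus against EDL, Ckb from -0.30 to 0.29 and Gatm from -0.047 to 0.26, and for soleus against psoas, Ckb from -0.56 to 0.015, Slc6a8 from -0.13 to 0.18, Ak1 from -0.19 to 0.047, Ampd1 from -0.0045 to 0.41 and Ampd3 from -0.65 to 0.019. The 3 soleus libraries limit every comparison with soleus.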
